A study of Mus musculus with 98 samples.

Results

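The gp38+CD26+ fibroblasts of the mouse thymus were compared between newborn mice (postnatal day 0, P0) and mice of 4 weeks. All libraries of wild-type gp38+CD26+ cells sequenced in bulk at both ages were taken, apart from S124 at 4 weeks, which left 6 libraries at P0 and 5 at 4 weeks, 11 of the 84 bulk libraries and of the 98 samples of the study. The study also sorted other stromal populations at both ages and profiled single stromal cells, of which the gp38+CD26- cells (6 libraries at each age) and the single cells of P0 and 4 weeks (2 libraries each) served here for comparison. All mice were wild type (WT). The paper used in-house bred C57BL/6 mice and also wild-type littermates of *Tbx1* and *Crkl* mutants, and does not say which gave these bulk libraries. gp38 is podoplanin, a membrane glycoprotein of fibroblasts, and CD26 is dipeptidyl peptidase-4, an ectoenzyme, and cells with both on their surface were taken from live nonepithelial stroma that lacked Ter119 (erythroid), CD45 (haematopoietic) and EpCAM (epithelial). Digests of adult thymi, according to the methods, first passed a magnetic depletion of CD45+ cells, a step that cannot be told apart from age here. The labels do not say that the libraries came from separate animals, so p-values measure the spread between libraries, which may in part be technical.

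The thymus is wrapped in a connective tissue capsule whose fibroblasts lay down collagen and elastic fibres and supply growth factors to the epithelium beneath them. CD26 marks fibroblasts of the capsule and of the septa that dip from it, and cells of this kind in other organs express *Pi16* and have been described as progenitors of other fibroblasts. Around birth, tissues grow fast under a set of imprinted genes, which are read from only the maternal or the paternal copy and are shut down soon afterwards, while the matrix goes on maturing in the weeks that follow.

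Library S124 held 25702 counts in 4343 genes and 1 count of *Dpp4*, the gene of CD26, and its profile was closest to cortical thymic epithelium of 4 weeks (Spearman 0.502), so it stands apart from its label and entered no main value. The 11 libraries held 8454267 to 14453515 counts at P0 and 12315710 to 14645628 at 4 weeks, in 12033 to 15092 genes, and the share of reads in no gene was 9.36 to 16.6% at P0 and 7.81 to 9.29% at 4 weeks. These shares did not overlap between the ages, their part in the results was not tested, and S55 at P0 had the highest share and the fewest genes. Spearman correlations over genes, which share the base composition and length of the genes, were 0.787 to 0.938 within P0, 0.862 to 0.923 within 4 weeks and 0.698 to 0.840 between the ages. S55 stood apart, at 0.787 to 0.817 with the other P0 libraries (median 0.806), near the median between the ages (0.808). The medians of the other P0 libraries were 0.889 to 0.922. Y-linked genes passed 10 CPM (counts in a gene scaled to a total of 1000000 counts in genes) in 1 of 6 libraries at P0 and 4 of 5 at 4 weeks. Libraries with Y-linked reads were thus not balanced between the ages. *Xist*, the female marker among the sex-linked genes, was at only 0 to 17.2 CPM at P0 and 0 to 1.42 CPM at 4 weeks. It does not clearly mark the other libraries as female, and the part of sex in the results was not tested. In what follows, values at 4 weeks are given for libraries S122, S125, S127, S131 and S132 in that order, the error of a log2 fold change (4 weeks over P0) is its standard error, and adjusted p-values are from the quasi-likelihood test of edgeR with Benjamini-Hochberg adjustment over all genes tested.

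The sorted cells carried the markers of fibroblasts at both ages. The summed level of 10 fibroblast markers was 43252 to 86663 CPM at P0 and 67567 to 73988 CPM at 4 weeks, and that of 14 markers of capsular CD26+ fibroblasts was 10689.9 to 13575 and 28867 to 43601 CPM. Markers of medullary fibroblasts summed to 4223 to 5918 CPM at P0 and 4064 to 6736 CPM at 4 weeks and overlapped between the ages. The sums of markers of several other cells differed between the ages, as the plot of marker sums by library shows. Mesothelial markers summed to 40.3 to 675 CPM at P0 and 958 to 7656 CPM at 4 weeks. Myeloid and antigen-presenting cell markers were at 8.16 to 58.4 CPM at P0 and 121.8 to 846 at 4 weeks, and erythroid markers were at 0.187 to 2.95 CPM at P0 and 1167 to 3143 CPM at 4 weeks. Thymic epithelial markers were at 0.265 to 16.7 CPM at P0 and 25.2 to 174.9 CPM at 4 weeks, and endothelial markers at 49.5 to 119.9 CPM at P0 and 176 to 321 CPM at 4 weeks. These 5 sums did not overlap between the ages, and in bulk RNA fewer cells of a type and less RNA per cell cannot be told apart. T lineage markers were at 0 to 25.5 CPM at P0 and 3.004 to 44.3 CPM at 4 weeks, which overlapped. Of the 12 myeloid markers *Adgre1* and *Itgax* were at 0 in all 11 libraries, of the 12 T lineage markers *Rag2* and *Themis*, and of the 10 endothelial markers *Tie1*, while 3 of 6 myeloid, 2 of 5 endothelial and none of 5 T lineage markers tested rose. Mural cells are the contractile cells around vessels. The summed level of their markers was lower at 4 weeks (497 to 576 CPM at P0, 89.4 to 254 at 4 weeks). Of 9 mural markers tested 2 fell, none rose and 7 did not pass (median -0.36). Those that fell were *Kcnj8* and *Abcc9*, both subunits of a potassium channel (-2.83 and -2.63 on the log2 scale). Their median levels were 135.2 and 230.6 CPM at P0 and 15.4 and 33.9 CPM at 4 weeks, a large part of the sum at P0. The lower sum is thus not a fall of the list as a whole.

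**Figure D1:**
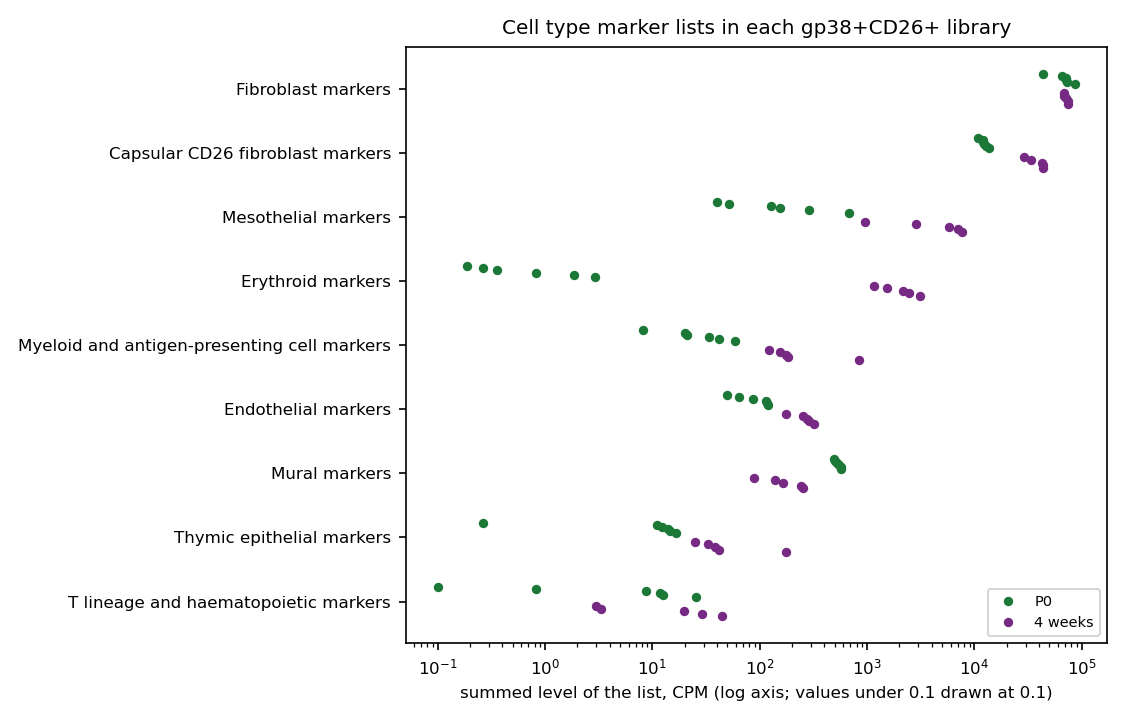
Summed level of 9 cell type marker lists (rows) in each gp38+CD26+ library (horizontal axis, CPM, log scale, with sums under 0.1 drawn at 0.1), 1 point a library, 6 at P0 and 5 at 4 weeks. Fibroblast markers overlap between the ages, capsular, mesothelial, erythroid, myeloid, endothelial and thymic epithelial markers lie higher at 4 weeks and mural markers lie lower.

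Of 12433 genes with enough counts to be tested, 1641 (13.2%) differed between the ages at an adjusted p under 0.05, 904 of them (7.27%) higher and 737 (5.93%) lower at 4 weeks. The median log2 fold change of all genes tested was -0.06, and 1214 genes (9.76%) had both an adjusted p under 0.05 and a change of more than 1 on the log2 scale. In 1639 genes (13.2%) the CPM of the libraries did not overlap between the ages. Scaled by the median ratio of counts (RLE) instead of trimmed means (TMM), 1617 genes passed, 955 of them higher, and none of the 105 genes called under the naming rule lost its call. With S124 kept in the comparison 864 genes passed. In gp38+CD26- fibroblasts 2987 of 12279 genes (24.3%) passed the same test. These shares are the background for every count of a gene list in the bulk libraries, and the plot of fold change against level shows that the largest changes lay in genes at 0 or nearly so at 1 age.

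**Figure D2:**
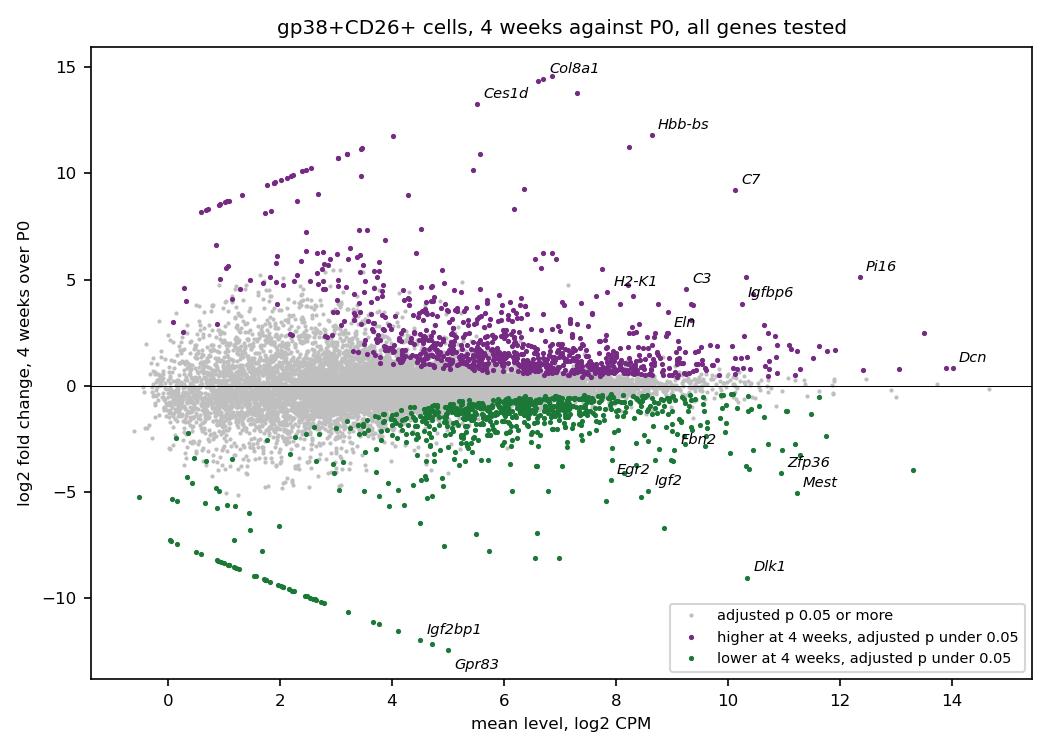
Log2 fold change of each of 12433 tested genes (vertical axis, 4 weeks over P0) against its mean level (horizontal axis, log2 CPM), with genes at an adjusted p under 0.05 coloured by direction and named genes marked. The 904 higher and 737 lower genes spread over the whole range of levels, with the imprinted and oncofetal genes *Dlk1*, *Mest* and *Igf2bp1* below 0 and *Col8a1*, *Ces1d* and *C7* above it.

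Of the proteins used for the sort, CD26 was encoded by a gene that rose with age and gp38 by one that did not pass the test. *Dpp4* (chr2:62330073-62412231 in the mm10 assembly) was at 129 to 464 CPM (median 247) at P0 and at 652, 537, 1075, 1022 and 771 CPM at 4 weeks (log2 fold change 1.59 ± 0.33, adjusted p = 0.00663). Every 4-week library lay above every P0 library, although the call was lost with S124 kept, in a fit with the other nonepithelial populations, in a test against a log2 fold change of 1 and in the DFCK libraries alone, where its log2 fold change was 0.84 (adjusted p = 0.707) against 2.20 in the TXCK libraries (adjusted p = 0.000741), TXCK and DFCK being prefixes of the library labels. *Pdpn*, the gene of gp38, was at 434 to 639.8 CPM (median 467) at P0 and 527, 589.6, 614, 581 and 509 CPM at 4 weeks (log2 fold change 0.27 ± 0.14, adjusted p = 0.259), and without S55 its adjusted p passed 0.05. *Pdgfra*, the platelet-derived growth factor receptor of fibroblasts, was at 724 to 1405 CPM (median 1064) and 830.0, 785, 527, 670.3 and 501 CPM (log2 fold change -0.56 ± 0.18, adjusted p = 0.0641), and it too passed without S55. In single capsular fibroblasts, described after the bulk data, *Pdgfra* went the other way and rose (1.03 ± 0.10, adjusted p = 0.00104). Of the genes whose proteins kept cells out of the sort, *Epcam* was at 0 to 0.0883 CPM (median 0) at P0 and 0 to 0.137 CPM at 4 weeks, and *Ptprc*, the gene of CD45, at 0 to 4.02 CPM (median 0) and 0 to 4.27 CPM.

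Markers of capsular CD26+ fibroblasts were higher at 4 weeks in 12 of the 14 measured, and none was lower, with a list median of 1.80 on the log2 scale. The paper described capsular fibroblasts by some of these markers, *Pi16* among them, in single cells of 4-week mice, and CD26 was itself a gate. Their rise by 4 weeks is therefore not independent evidence. *Pi16* (chr17:29317680-29330593), a peptidase inhibitor that labels fibroblasts of the adventitia, was at 247 to 548 CPM (median 302) at P0 and at 6942, 7870.4, 12696, 13615 and 12037 CPM at 4 weeks (log2 fold change 5.11 ± 0.28, adjusted p = 3.89e-07). *Igfbp6*, which binds insulin-like growth factor 2, was at 116 to 228 CPM (median 170.3) and 1551, 1931, 2666, 2765 and 2919 CPM (log2 fold change 3.86 ± 0.24, adjusted p = 7.2e-07). In the single-cell libraries *Igfbp6* was at 1845 CPM at P0 and 5759 CPM at 4 weeks in the cells labelled mesothelium and at 148.7 and 1665 CPM in capsular fibroblasts. *Pi16* was at 15.3 and 108.8 CPM in the former and 250.8 and 2534 CPM in the latter, and *Dpp4* at 79.8 and 107.99 CPM and at 48.1 and 143.3 CPM. These levels, and those set beside cells labelled mesothelium below, pool both libraries of an age. The cells labelled mesothelium numbered 228 and 7 in the libraries of P0 and 32 and 157 in those of 4 weeks. Most thus came from a single library at each age, and no spread between libraries is given. For *Pi16* and *Igfbp6* the ages did not overlap in bulk, with S49 standing highest of the P0 libraries in *Pi16*. *Anxa3*, a calcium-dependent membrane-binding protein (3.79), *Ly6c1* (3.40) and *Ly6a* (2.12), surface proteins of stromal and haematopoietic cells, *Timp2*, an inhibitor of matrix metalloproteinases (2.75), *Cd248*, the membrane protein endosialin (1.91), and *Mfap5*, a microfibril protein (1.70), rose as well. *Creb5* (log2 fold change 0.68) and *Fstl1* (0.31) did not pass. Among the general fibroblast markers, 2 of 10 rose and none fell (median 0.08), the 2 being *Dpt* (1.57) and *Dcn* (0.84), which code for the collagen-binding proteins dermatopontin and decorin.

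**Figure D3:**
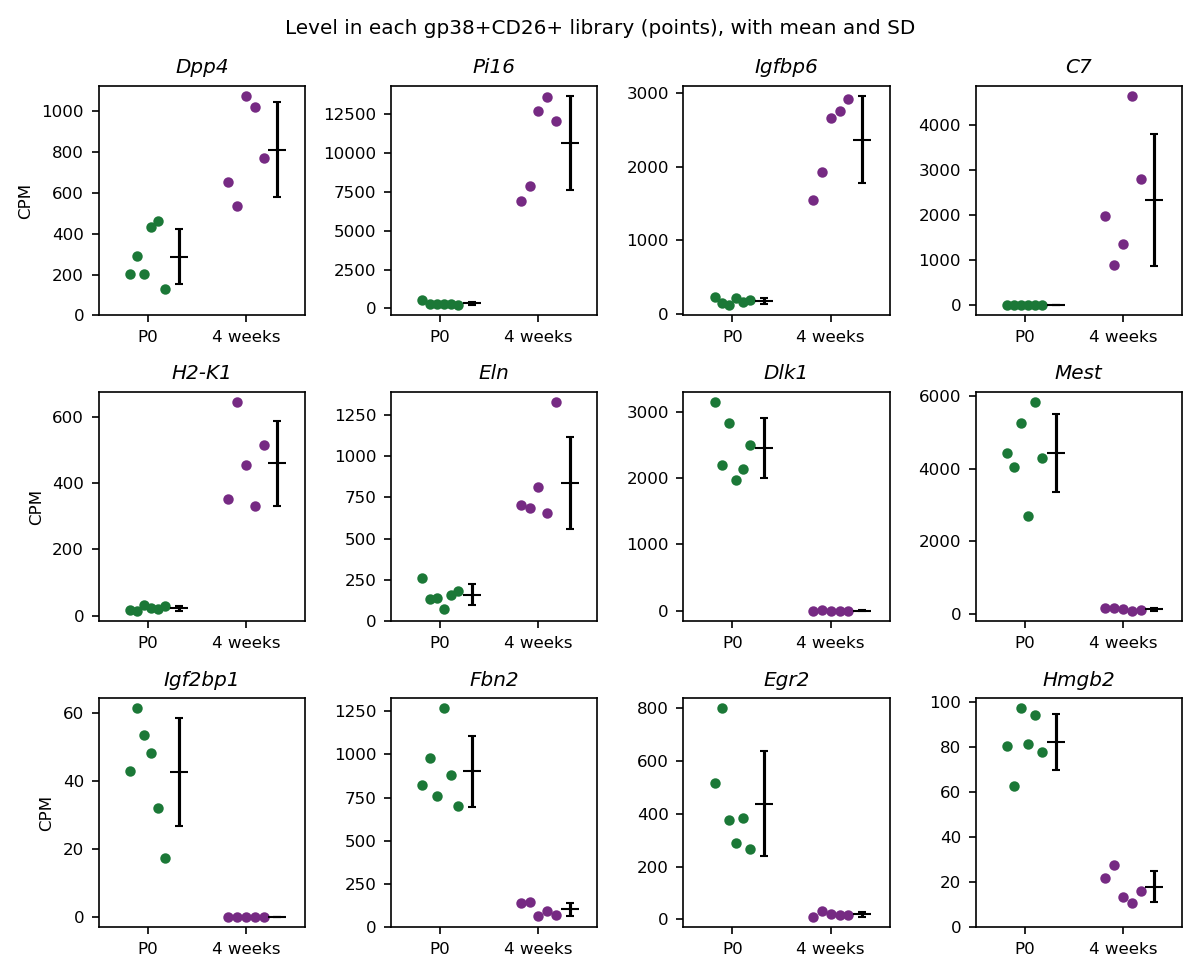
Level of 12 genes (vertical axes, CPM, linear scale) in each gp38+CD26+ library at P0 (6) and 4 weeks (5), with points for libraries and the mean ± SD beside them. *Dpp4*, *Pi16*, *Igfbp6*, *C7*, *H2-K1* and *Eln* lie higher at 4 weeks, and *Dlk1*, *Mest*, *Igf2bp1*, *Fbn2*, *Egr2* and *Hmgb2* lie higher at P0.

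Several genes were read at 4 weeks and not at all at P0 in these bulk libraries. *Mrgprg*, an orphan G protein-coupled receptor, had no count in the 6 newborn libraries and was at 249, 588, 91.1, 233 and 73.1 CPM at 4 weeks, at least 5633-fold higher (taking 3 counts over the P0 group as the most that a count of 0 allows, adjusted p = 0.000182). *Col8a1*, a short-chain collagen of the subendothelium, went from 0 to 268, 75.8, 150.2, 285 and 318 CPM (at least 4846-fold, adjusted p = 3.04e-05). The carboxypeptidase-like *Cpxm2* went from 0 to 199, 331, 63.7, 267 and 172.5 CPM (at least 4675-fold, adjusted p = 3.76e-05). Each of these was present in all 5 libraries of 4 weeks and absent from all 6 of P0. The carboxylesterase *Ces1d* rose at least 2156-fold, the carbonic anhydrase relative *Car8* at least 510.0-fold and the small GTPase *Rab38* at least 505-fold. In single capsular fibroblasts (cells of other libraries, described after the bulk data) these genes rose too, and each had UMIs in at least 1 library of P0, among them *Col8a1* with 385 and 68 UMIs in the 2 libraries (log2 fold change 4.15 ± 0.63, adjusted p = 0.00416), *Car8* with 72 and 35 (3.45 ± 0.29, adjusted p = 0.000648) and *Rab38* with 57 and 24 (2.64 ± 0.37, adjusted p = 0.00312). The globin genes *Hba-a1*, *Hba-a2* and *Hbb-bs* were also among the 10 genes that rose most. Near-identical globin copies share reads, so their division is uncertain, and the summed erythroid level was also higher at 4 weeks in gp38+CD26- cells, at 0 to 0.61 CPM (median 0.162) at P0 and 27.4 to 3423 CPM (median 2501) at 4 weeks, library S158 being far below the other 5.

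The opposite pattern was found for genes of the newborn. *Gpr83*, an orphan receptor of the nervous system and regulatory T cells, was at 50.3 to 77.3 CPM (median 58.2) at P0 and had no count at 4 weeks, at least 1349-fold lower (adjusted p = 1.37e-06). *Agt*, the precursor of angiotensin, was at 34.9 to 64.1 CPM (median 48.3) and then 0 (at least 1122-fold, adjusted p = 3.86e-06). *Igf2bp1*, an RNA-binding protein of fetal tissue, was at 17.4 to 61.4 CPM (median 45.6) and then 0 (at least 981-fold, adjusted p = 2.57e-05). The other genes of this kind were *Vstm2a* (at least 712-fold), a secreted protein of preadipocytes, *Hif3a* (567-fold), a hypoxia-inducible factor, *Magel2* (554-fold), an imprinted ubiquitin ligase adaptor, *Edn3* (393-fold), the ligand endothelin 3, *Casq2* (298-fold), a calcium-binding protein of muscle, *Msr1* (260.2-fold), a scavenger receptor of macrophages, and *Dsc2* (256-fold), a desmosomal cadherin. None of them had a count in any of the 5 libraries of 4 weeks. *Edn3* also had no count in S55 at P0, so its ages overlapped. In single capsular fibroblasts 8 of these 10 fell as well, while *Agt*, at 23.8 and 40.3 CPM at P0 and 3.92 and 25.97 CPM at 4 weeks, did not pass (-0.95 ± 0.69, adjusted p = 0.302), and neither did *Casq2*, at 1.03 and 0.735 CPM at P0 and 0.456 and 0.75 CPM at 4 weeks (-0.41 ± 0.44, adjusted p = 0.468).

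Imprinted and oncofetal growth genes fell together. Of 25 on the list 20 were tested, 17 fell, none rose, and the median was -2.62 against -0.06 for all genes. Their summed level was 16516 to 26828 CPM at P0 and 2781 to 3699.7 at 4 weeks. *Dlk1* (chr12:109452823-109463336), a paternally expressed ligand that holds back adipocyte differentiation, was at 1964 to 3138 CPM (median 2345) at P0 and at 0, 16.498, 2.99, 0 and 2.27 CPM at 4 weeks (log2 fold change -9.03 ± 1.19, adjusted p = 0.000294). *Mest* (chr6:30723547-30748465), a paternally expressed hydrolase, was at 2706 to 5834 CPM (median 4374) and 149.02, 170.5, 129.6, 79.1 and 100.7 CPM (log2 fold change -5.04 ± 0.27, adjusted p = 3e-07). *Igf2*, the fetal growth factor that IGFBP6 binds, was at 558 to 853 CPM (median 744) and 14.1, 25.2, 11.04, 18.2 and 35.2 CPM (log2 fold change -4.98 ± 0.32, adjusted p = 1.2e-06). In all of these every newborn library was far above every 4-week library. *H19*, the maternally expressed RNA beside *Igf2* (-3.78), *Plagl1*, a zinc finger factor that acts on the imprinted network (-4.96), *Peg10*, which is derived from a retrotransposon (-6.96), *Peg3*, a zinc finger protein (-3.53), *Cdkn1c*, an inhibitor of cyclin-dependent kinases (-2.37), and *Meg3*, a maternally expressed RNA (-2.45), fell too. The members that fell thus included promoters and inhibitors of growth. The RNA-binding proteins *Igf2bp2* (-2.57) and *Igf2bp3* (-2.93) fell but were still read at 4 weeks, unlike *Igf2bp1*. *Impact* (-0.06) and *Sgce* (0.23) did not pass the test.

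Immediate early genes, which respond within minutes to growth factors and to the handling of cells, were lower at 4 weeks. Of 24 tested 13 fell and none rose, with a median of -1.76 on the log2 scale. *Egr2*, a zinc finger factor, was at 267 to 799 CPM (median 380.2) at P0 and at 8.87, 32.7, 18.7, 15.4 and 17.9 CPM at 4 weeks (log2 fold change -4.44 ± 0.39, adjusted p = 1.52e-05). *Zfp36*, which destabilises mRNA of cytokines, was at 1391 to 6049 CPM (median 3614) and 66.7, 214, 79.3, 267 and 329.9 CPM (log2 fold change -4.11 ± 0.53, adjusted p = 0.000255). The ages did not overlap in either gene. *Btg2*, an antiproliferative protein (-3.72), *Socs3*, the inhibitor of cytokine receptors (-3.52), *Junb* (-3.28), *Egr1* (-3.03), *Myc* (-2.94) and *Fos* (-1.98), all transcription factors, fell as well. The list's sum was 14252 to 34869 CPM at P0 and 3234 to 8813 at 4 weeks. The added depletion step of adult digests changes the handling along with age, and the 2 cannot be told apart in these values.

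The promoters of 2 of these genes are printed because they hold the elements through which serum and cyclic AMP act on immediate early genes, the CArG box bound by serum response factor and TGACGTCA bound by CREB, in capitals. Sequences are from RefSeq (GRCm38.p6), 60 bases within the 250 before the transcription start, and both strands were searched for each motif.
Zfp36 (chr7:28379252-28379311, minus strand): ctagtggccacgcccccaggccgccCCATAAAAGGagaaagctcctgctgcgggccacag
Btg2 (chr1:134079288-134079347, minus strand): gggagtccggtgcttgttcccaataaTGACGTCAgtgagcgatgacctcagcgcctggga
A promoter was found for 9302 of the 12433 tested genes (74.8%), so shares over all genes are of that part alone. A CArG box was found in 2 of 19 immediate early genes with a promoter, both of which fell (*Egr2* and *Zfp36*), and in 1.32% of all 9302 promoters. TGACGTCA was found in 2 of 19 (*Btg2*, which fell, and *Dusp1*, which did not pass) and in 3.09% of all promoters.

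Genes of the cell cycle and of ribosome assembly were lower at 4 weeks in part. Of 38 cell cycle genes tested 6 fell and none rose (median -0.60), a count that was 3 without S50, without S54 or without S57. *Hmgb2*, a chromatin protein of dividing cells, was at 62.8 to 97.6 CPM (median 80.9) at P0 and at 21.9, 27.7, 13.7, 10.9 and 16.2 CPM at 4 weeks (log2 fold change -2.10 ± 0.26, adjusted p = 0.000196). *Cdk1*, the kinase of mitosis, was at 49.1 to 92.4 CPM (median 56.8) and 29.9, 11.4, 37.4, 6.15 and 23.3 CPM (log2 fold change -1.43 ± 0.40, adjusted p = 0.034). *Ccne2* and *Ccna2*, cyclins of DNA replication (-1.70 and -1.64), and *Mcm4* and *Mcm6*, subunits of the replicative helicase (-1.01 and -0.75), made up the rest. *Mki67* (-1.31) and *Top2a* (-0.99), which are read in most dividing cells, did not pass. Of 30 genes of ribosome biogenesis and translation 8 fell and none rose (median -0.52), among them *Hnrnpa1* (-1.19), *Nop58* (-1.16), *Ncl* (-1.05) and *Npm1* (-0.91), with 5 calls left without S54, S58 or S122.

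The promoters of *Cdk1* and *Hmgb2* are shown with TTTGAA, a core of the cell cycle homology region through which genes of late cell cycle phases are repressed in resting cells, in capitals (RefSeq, GRCm38.p6).
Cdk1 (chr10:69352913-69352972, minus strand): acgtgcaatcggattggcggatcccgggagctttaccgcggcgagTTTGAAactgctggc
Hmgb2 (chr8:57511783-57511842, plus strand): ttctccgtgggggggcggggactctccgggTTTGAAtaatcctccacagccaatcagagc
Each of these 2 promoters held 2 matches in the 250 bases, 1 of them in the stretch shown. TTTGAA was found in 9 of 30 cell cycle genes with a promoter and in 12.6% of all 9302, and such a short run of letters is common by itself. Of the 9 only *Cdk1* and *Hmgb2* fell, and *Mki67*, *Top2a*, *Ccnb2*, *Cdc20*, *Kif11*, *Ube2c* and *Mcm2* did not pass.

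Matrix genes moved in both directions. The genes of the main fibrillar collagens did not pass the test, *Col1a1* with a log2 fold change of -0.16 and *Col3a1* with 0.10. Of 32 genes of fibrillar collagens and their processing 7 rose and 5 fell (median -0.12). *Pcolce2*, which enhances the cutting of procollagen, was at 0 to 6.44 CPM (median 3.45) at P0 and at 182.3, 206, 214, 229 and 248 CPM at 4 weeks (log2 fold change 6.27 ± 0.82, adjusted p = 0.000271). The procollagen protease *Adamts2* (1.86), *Bmp1* (1.32), which cuts the other end of procollagen, and the crosslinking enzyme *Loxl1* (1.72) rose, while *Plod2*, the lysyl hydroxylase of collagen telopeptides (-1.61), and *Col12a1* (-1.02) fell. Among 25 basement membrane genes tested 6 rose and 4 fell, with *Col4a3* (4.71) and *Col4a5* (2.20) higher and *Col4a1* (-1.43), *Col6a6* (-2.20) and *Nid2* (-1.81) lower.

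Elastic fibre genes moved both ways, 8 of 20 higher and 3 lower. *Eln* (chr5:134702593-134747323), which codes for elastin itself, was at 73.3 to 263 CPM (median 153) at P0 and at 704, 683, 812, 658 and 1324 CPM at 4 weeks (log2 fold change 2.49 ± 0.29, adjusted p = 0.000135). Library S132 stood highest, and all 5 libraries of 4 weeks were above P0. *Fbn1*, the fibrillin of adult microfibrils, rose (log2 fold change 1.31 ± 0.18, adjusted p = 0.000355), whereas *Fbn2*, the fibrillin of the embryo, was at 701 to 1265 CPM (median 849) and 140.1, 149.1, 64.6, 92.9 and 73.97 CPM (log2 fold change -3.02 ± 0.26, adjusted p = 1.36e-05). The fibrillins thus moved in opposite directions in the same libraries. *Efemp1* (2.496), *Fbln2* (1.84), *Fbln5* (1.18) and *Ltbp1* (1.95), a binding protein of latent TGF-β, rose, and *Mfap2*, a microfibril glycoprotein (-1.04), fell.

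Of 29 proteoglycans and glycoproteins of the matrix tested, 14 rose and 8 fell (median 0.84). The leucine-rich proteoglycans included both the largest fall of the list and several rises. *Kera*, the keratocan of cornea and tendon, was at 87.5 to 290.0 CPM (median 159) at P0 and at 0, 2.84, 0, 0 and 0 CPM at 4 weeks (log2 fold change -8.12 ± 1.10, adjusted p = 0.000368). *Podn* (3.68), *Fmod* (3.66), *Omd* (2.42) and *Prelp* (1.90) rose. *Postn*, the periostin of growing connective tissue, was at 1141 to 1411 CPM (median 1349) and 280.1, 164.6, 203, 80.02 and 134.9 CPM (log2 fold change -2.84 ± 0.26, adjusted p = 2.06e-05). *Thbs1*, the adhesive protein thrombospondin 1 (-4.13), and *Vcan*, the large proteoglycan of embryonic matrix (-1.48), fell, and *Fn1*, fibronectin (1.597), *Spon2* (3.86) and *Matn4* (6.06) rose. Matrix proteases and their inhibitors were split, with 8 of 24 higher and 5 lower. *Timp2*, *Timp3* (1.79) and *Timp1* (1.19), which inhibit metalloproteinases, and *Mmp3*, a stromelysin (2.58), rose, and *Adam12*, a membrane metalloproteinase of growing mesenchyme (-3.53), and *Adamts1* (-2.20) fell.

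Genes for presenting antigen on MHC class I rose from birth to 4 weeks, 11 of 17 tested with none lower and a median of 1.63. The sum of the list was 2754 to 3673 CPM at P0 and 8135 to 11857 at 4 weeks. *H2-K1* (chr17:33996017-34000347), a classical heavy chain, was at 14.7 to 32.1 CPM (median 21.3) at P0 and at 353, 643, 453, 332 and 514 CPM at 4 weeks (log2 fold change 4.41 ± 0.26, adjusted p = 6.3e-07). *H2-D1*, the other classical chain, was at 6.45 to 280.3 CPM (median 147.5) and 1779, 3874, 2945, 2496 and 2831 CPM (log2 fold change 4.32 ± 0.64, adjusted p = 0.000692). No P0 library reached the lowest library of 4 weeks in either. In the single-cell libraries *H2-K1* was at 348 CPM at P0 and 1321 CPM at 4 weeks in the cells labelled mesothelium and at 37.6 and 489 CPM in capsular fibroblasts. *B2m*, the shared light chain, was at 304 to 450.4 CPM (median 368) and 1099, 1065, 1149, 989 and 1104 CPM (log2 fold change 1.63 ± 0.12, adjusted p = 2.85e-06). *Psmb8* (3.21), *Psmb9* (3.04) and *Psmb10* (0.94), the catalytic subunits of the immunoproteasome, and *Tapbp*, the tapasin that loads peptide (2.33), rose with them, as did *H2-T23* (1.67) and *H2-T22* (0.66). Class I heavy chain genes resemble one another, so the division of reads among them is uncertain. Class II genes, which are typical of antigen-presenting cells, rose from low levels, *Cd74*, the invariant chain, being at 0.177 to 22.5 CPM (median 6.16) and 494, 87.3, 82.1, 59.4 and 70.6 CPM (log2 fold change 4.16 ± 0.87, adjusted p = 0.00679). *H2-Ab1*, a class II β chain, was at 0.208 to 19.8 CPM (median 3.85) and 172.3, 40.2, 59.0, 30.999 and 37.8 CPM (log2 fold change 3.59 ± 0.85, adjusted p = 0.0143). In both, S122 stood far above the other 4 libraries of 4 weeks. It was also highest in the summed myeloid and antigen-presenting cell level, which includes class II genes, at 846 CPM against 121.8 to 183.97 CPM in the other 4, and the part of such cells was not tested.

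Interferon-induced genes were higher in 7 of 33 tested and lower in 1, with a median of 0.73, and without S132 the count of calls was 4. *Zbp1*, a sensor of nucleic acids (log2 fold change 2.95 ± 0.53, adjusted p = 0.0027), *Oas1a*, an oligoadenylate synthetase (log2 fold change 1.72 ± 0.36, adjusted p = 0.00651), *Gbp2* (1.67) and *Igtp* (1.04), GTPases of cell defence, and *Irf7* (1.56) rose. *Irf1*, a transcription factor of the same family as *Irf7*, was at 59.4 to 337 CPM (median 121.8) at P0 and 28.3, 26.7, 10.2, 18.8 and 25.3 CPM at 4 weeks and fell (log2 fold change -2.67 ± 0.47, adjusted p = 0.00216). *Isg15* (0.84) did not pass.

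The promoters that held 2 copies of GAAA separated by any 2 bases, the core to which factors of interferon signalling bind, are shown for the class I and interferon-induced genes that rose, with the core in capitals (RefSeq, GRCm38.p6, read in the direction of transcription, so that a core on the other strand appears as copies of TTTC).
B2m (chr2:122147523-122147582, plus strand): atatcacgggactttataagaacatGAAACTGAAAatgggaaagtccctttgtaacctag
H2-T23 (chr17:36032791-36032850, minus strand): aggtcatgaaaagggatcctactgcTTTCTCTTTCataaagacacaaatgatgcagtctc
H2-T22 (chr17:36042899-36042958, minus strand): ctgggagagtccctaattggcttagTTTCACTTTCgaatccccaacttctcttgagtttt
Oas1a (chr5:120907526-120907585, minus strand): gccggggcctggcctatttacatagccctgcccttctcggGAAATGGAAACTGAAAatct
Igtp (chr11:58199496-58199555, plus strand): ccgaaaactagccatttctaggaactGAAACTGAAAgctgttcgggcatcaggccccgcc
Gbp2 (chr3:142620579-142620638, plus strand): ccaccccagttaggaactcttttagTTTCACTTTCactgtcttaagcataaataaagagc
In *Oas1a* 2 cores overlap. The core was in 3 of 16 class I genes with a promoter, all of which rose, in 13 of 24 interferon-induced genes, 3 of which rose, and in 3.27% of all 9302 promoters. The promoters of *H2-K1* and *H2-D1* held no match, which says only that these letters are not in the window.

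Complement genes rose in 9 of 15 tested and fell in none, with a median of 1.83. *C7* (chr15:4988762-5063740), a component of the membrane attack complex, was at 1.75 to 9.58 CPM (median 3.62) at P0 and at 1976, 892, 1368, 4643 and 2811 CPM at 4 weeks (log2 fold change 9.20 ± 0.60, adjusted p = 1.24e-06). *C3*, the central component, was at 26.02 to 79.4 CPM (median 58.6) and 749, 1930.3, 1058, 1281 and 1095 CPM (log2 fold change 4.54 ± 0.33, adjusted p = 2.85e-06). The ages were apart in both, and in the single-cell libraries *C7* was at 0 and 4.23 CPM in the cells labelled mesothelium and at 0.469 and 83.9 CPM in capsular fibroblasts at P0 and 4 weeks. *C3* was at 1802 and 3907 CPM in the former and at 70.5 and 2212 CPM in the latter. *Clu*, clusterin, which binds the forming attack complex, was at 0 to 9.95 CPM (median 3.56) and 5.51, 154, 129.6, 48.8 and 135.7 CPM (log2 fold change 4.56 ± 0.97, adjusted p = 0.00759), with S122 lying among the P0 libraries. In the single-cell libraries *Clu* was at 400 CPM at P0 and 1442 CPM at 4 weeks in the cells labelled mesothelium and at 19.4 and 35.7 CPM in those labelled capsular fibroblasts. The early components *C4b* (3.39) and *C2* (1.25), factor B of the alternative pathway, *Cfb* (3.40), and the regulators *Serping1* (1.89) and *Cd55* (1.80) rose as well, so the rises covered activators and inhibitors.

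**Figure D4:**
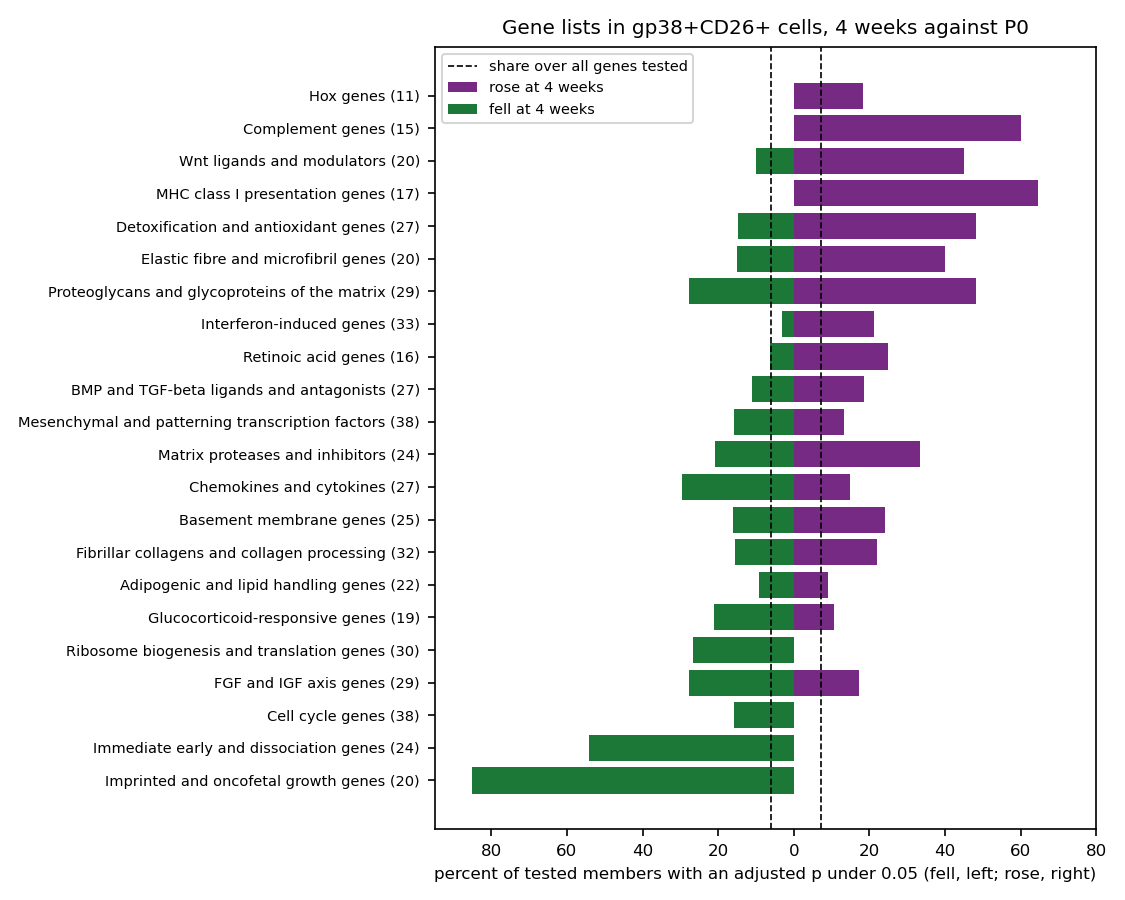
Share of the tested members of 22 process lists (horizontal axis, percent) that were higher or lower in gp38+CD26+ cells at 4 weeks, with dashed lines at the shares of all 12433 tested genes (7.27% and 5.93%). MHC class I, complement and proteoglycan genes reach furthest on the higher side, and imprinted and immediate early genes on the lower side.

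Genes of secreted signals and of their modulators moved in both directions. Of 20 Wnt ligands and modulators tested 9 rose and 2 fell, with a median of 1.74. *Rspo1*, an R-spondin that enhances Wnt signals and is also a mesothelial marker, was at 0 to 1.40 CPM (median 0) at P0 and at 1.79, 104, 53.6, 27.7 and 50.9 CPM at 4 weeks (log2 fold change 7.39 ± 1.29, adjusted p = 0.00211). Library S122 was close to the P0 libraries in *Rspo1*, and the other 4 were far above. *Sfrp4*, a secreted Wnt-binding protein, was at 0.0883 to 68.1 CPM (median 17.6) and 410.0, 417, 679, 799 and 699 CPM (log2 fold change 4.75 ± 0.82, adjusted p = 0.00196). The ligands *Wnt2* (2.56), *Wnt5a* (2.35) and *Wnt11* (1.92), the R-spondin receptor *Lgr5* (2.42) and *Axin2*, a feedback target of β-catenin (1.95), were higher, and *Dkk3* (-1.31) was lower. Among BMP and TGF-β genes 5 of 27 rose and 3 fell, and the calls went from 8 to 5 without S50 or without S55. *Nbl1*, a BMP antagonist (2.35), and *Fst*, follistatin, an activin antagonist (1.63), rose. *Inha*, the α subunit of inhibin, was at 0 to 5.89 CPM (median 2.09) at P0 and had no count in the 5 libraries of 4 weeks, at least 54.7-fold lower (adjusted p = 0.014).

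In the FGF and IGF axis 5 of 29 genes tested rose and 8 fell (median -0.57). *Fgf10*, a mesenchymal ligand that makes the thymic epithelium grow, was at 161.5 to 298 CPM (median 203) at P0 and 52.8, 73.9, 52.1, 62.5 and 18.4 CPM at 4 weeks (log2 fold change -1.93 ± 0.31, adjusted p = 0.00122). *Fgf7*, which acts on the same receptor, was at 71.7 to 134.1 CPM (median 94.6) and 44.0, 48.4, 24.8, 45.2 and 37.03 CPM (log2 fold change -1.20 ± 0.24, adjusted p = 0.00589). In both genes every library of 4 weeks was below every library of P0. *Fgf1* went the other way (log2 fold change 3.095 ± 0.82, adjusted p = 0.0255). The feedback inhibitors *Spry2*, at 391 to 974 CPM (median 439) and 104, 65.2, 77.1, 88.4 and 57.7 CPM (log2 fold change -2.71 ± 0.28, adjusted p = 5.4e-05), and *Spry4* (-2.45), and the transcription factor *Etv5* (-1.74), all induced by FGF signals, fell. Binding proteins of insulin-like growth factors were divided, *Igfbp5* being at 41.2 to 116 CPM (median 107.1) and 783, 1270.3, 1954, 1014 and 1326 CPM (log2 fold change 3.85 ± 0.30, adjusted p = 5.73e-06) and *Igfbp3* at 978 to 2179 CPM (median 1629) and 321, 363, 233, 306 and 388 CPM (log2 fold change -2.19 ± 0.21, adjusted p = 3.04e-05).

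Of 16 retinoic acid genes tested 4 rose and 1 fell, and calls were 3 without S57 and 8 without S55. *Aldh1a3* (log2 fold change 3.46 ± 0.37, adjusted p = 6.66e-05), *Aldh1a2* (log2 fold change 3.39 ± 0.89, adjusted p = 0.0247) and *Aldh1a1* (log2 fold change 0.99 ± 0.23, adjusted p = 0.0136), the enzymes that make retinoic acid, rose. *Stra6*, the receptor for retinol uptake, had 1 count at P0 and was at 25.5, 6.90, 2.53, 9.15 and 6.58 CPM at 4 weeks, 679-fold (95% counting interval 121 to 26841) higher (adjusted p = 0.00028). Among the libraries of 4 weeks *Aldh1a2* was lowest in S122, which was also lowest in the summed mesothelial level, while *Stra6* was highest in S122. The part of mesothelial cells was not tested.

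Of 27 chemokine and cytokine genes tested 8 fell and 4 rose (median 0.02). *Il6*, interleukin 6, was at 4.52 to 64.2 CPM (median 25.5) at P0 and at 0, 0, 2.38, 0 and 0.244 CPM at 4 weeks (log2 fold change -5.65 ± 1.33, adjusted p = 0.0139). *Cxcl1*, which attracts neutrophils, was at 82.02 to 285 CPM (median 172.9) and 10.6, 10.8, 1.53, 18.9 and 16.4 CPM (log2 fold change -3.77 ± 0.54, adjusted p = 0.000581), and *Cxcl13*, which attracts B cells, was at 476 to 1307 CPM (median 648) and 38.1, 138, 29.1, 52.2 and 42.5 CPM (log2 fold change -3.504 ± 0.45, adjusted p = 0.000259). In these 3 genes the ages did not overlap. In single capsular fibroblasts *Cxcl13* was at 85.4 and 330.2 CPM at P0 and 331 and 775 CPM at 4 weeks, higher at 4 weeks by its means and not past the test (log2 fold change 1.48 ± 0.68, adjusted p = 0.125). *Cxcl14*, a chemokine of skin and stroma, was at 0 to 6.997 CPM (median 2.95) and 34.6, 147, 30.4, 44.7 and 8.53 CPM and rose (log2 fold change 4.16 ± 0.92, adjusted p = 0.00957). *Ccl2* (-1.83) and *Ccl7* (-2.08), which attract monocytes, fell, and *Il33* (1.32), an alarmin, and *Il34* (1.74), a ligand of the macrophage growth factor receptor, rose. *Cxcl12*, the stromal ligand of CXCR4, did not pass (log2 fold change 0.56 ± 0.32, adjusted p = 0.297).

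Among 38 patterning and mesenchymal transcription factors tested 5 rose and 6 fell, and 6 to 7 calls were left without S127, S131 or S132. *Sox5* had no count at P0 and was at 11.5, 9.10, 11.1, 6.21 and 9.18 CPM at 4 weeks (at least 208-fold higher, adjusted p = 0.000527). *Sox9*, a factor of cartilage and progenitor cells, was at 25.1 to 95.5 CPM (median 84.8) and 10.6, 10.1, 14.3, 13.8 and 12.504 CPM (log2 fold change -2.44 ± 0.33, adjusted p = 0.000397). The homologous factors *Osr1* (1.46) and *Osr2* (-1.90) moved in opposite directions, *Wt1*, a factor of mesothelium and of some fibroblasts, rose (1.57), and *Nfia* (-0.96) and *Nfib* (-1.18) fell while *Nfix* (0.94) rose. *Hoxc5*, at 0 to 1.68 CPM (median 0) and 41.1, 25.3, 31.1, 18.2 and 36.2 CPM, rose (log2 fold change 6.85 ± 1.26, adjusted p = 0.0031), as did 1 other of 11 Hox genes tested, and 1 call was left without S54, S57, S127, S131 or S132.

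Detoxification and antioxidant genes were higher in 13 of 27 tested and lower in 4 (median 1.32). Beside *Ces1d*, the glutathione transferase *Gsta3* was at 0 to 0.46 CPM (median 0) at P0 and at 10.2, 36.8, 64.6, 28.1 and 64.3 CPM at 4 weeks (log2 fold change 8.99 ± 1.03, adjusted p = 0.000116). *Gstt1* (3.20), the plasma glutathione peroxidase *Gpx3* (2.49) and the extracellular superoxide dismutase *Sod3* (2.34) rose. *Adh1*, the alcohol dehydrogenase that also oxidises retinol, went the other way, at 1806 to 5109.6 CPM (median 2386) and 357, 527, 274, 562 and 249 CPM (log2 fold change -2.75 ± 0.34, adjusted p = 0.000198). Glucocorticoid-responsive genes were changed in 6 of 19 tested, 4 of them lower, with 3 calls left without S50, S57, S131 or S132. Those that fell were the clock gene *Per1* (-2.25), *Cebpd* (-2.29), *Klf15* (-1.32) and *Sgk1* (-1.30), and *Hsd11b1*, the enzyme that makes active glucocorticoid inside cells (1.31), rose. Of 22 genes of adipogenesis and lipid handling 2 rose and 2 fell, with *Scd1*, a fatty acid desaturase, the higher (2.91).

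The change with age was next set against that of gp38+CD26- fibroblasts sorted from the same kinds of mice. Of the 1641 genes called in gp38+CD26+ cells 860 (52.4%) were called in the same direction in gp38+CD26- cells, which was 28.8% of the 2987 calls there, and 36 were called in opposite directions. The difference between the 2 changes was itself called for 702 of 14066 genes (4.99%), 251 (1.78%) with a more positive change in gp38+CD26+ cells and 451 (3.21%) with a more negative one. The test takes the libraries of both populations as independent, and the labels do not say whether the same mice gave both. Sex-linked levels, given below, went with pairs of libraries that lie a fixed step apart in number. With such pairs as a replicate block and S160 left out, 329 differences were called, among them 287 of the 702, against 548 without the block. *Postn* fell in gp38+CD26+ cells and rose in gp38+CD26- cells, from 447 to 774 CPM to 1686 to 2391 CPM (log2 fold change 1.74 ± 0.14, adjusted p = 1.18e-06), and the difference of the log2 fold changes was -4.58 ± 0.30, adjusted p = 2.12e-09. *Eln* rose in gp38+CD26+ cells and was at 219.8 to 346 CPM and 133 to 284 CPM in gp38+CD26- cells (log2 fold change -0.30 ± 0.17, adjusted p = 0.242), a difference of 2.79 ± 0.34, adjusted p = 3.51e-05. In gp38+CD26- cells the ranges of *Eln* overlapped between the ages. *Igfbp5* differed in the same way, with 22.1 to 164.8 CPM and 37.2 to 118.9 CPM in gp38+CD26- cells (difference 3.95 ± 0.56, adjusted p = 0.000174). *Timp3* (difference 4.88 ± 0.37, adjusted p = 1.93e-08) and *Fn1* (2.76 ± 0.37, adjusted p = 8.9e-05) rose in gp38+CD26+ cells and fell in gp38+CD26- cells.

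Capsular markers moved apart between the populations, with a called difference for 10 of 14, 8 more positive in gp38+CD26+ cells. Some of these markers came from capsular cells of 4-week mice and CD26 was the gate, so this direction is not independent evidence. *Cd248* rose in gp38+CD26+ cells and fell in gp38+CD26- cells (log2 fold change -1.01 ± 0.18, adjusted p = 0.000741), with a difference of 2.92 ± 0.33, adjusted p = 8.53e-06. *Anxa3* (2.60 ± 0.57, adjusted p = 0.00913) and *Timp2* (1.37 ± 0.30, adjusted p = 0.0091) differed in the same direction. *Ly6a* (-4.34 ± 0.40, adjusted p = 6.29e-07) and *Ly6c1* (-2.52 ± 0.57, adjusted p = 0.0108) rose in both and rose more in gp38+CD26- cells. With the libraries paired by number, the differences of *Ly6c1* (-2.59 ± 0.73, adjusted p = 0.0916), *Sema3c* (adjusted p = 0.0916) and *Creb5* (adjusted p = 0.12) did not pass. For *Dpp4* itself the difference was 2.70 ± 0.90, adjusted p = 0.0863, which did not pass. *Pi16* had no called difference either (1.02 ± 1.17, adjusted p = 0.765). It rose in gp38+CD26- cells too, from 0 to 18.1 CPM to 18.6 to 216 CPM (log2 fold change 4.12 ± 1.24, adjusted p = 0.0251).

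Imprinted genes fell in both populations, in gp38+CD26- cells 16 of 19 tested, where *Sgce* rose (0.47). They fell less in gp38+CD26+ cells where the changes differed, the difference being called and positive for 7 of 21 tested. *H19* fell more in gp38+CD26- cells (log2 fold change -8.03, difference 4.26 ± 0.83, adjusted p = 0.00376), and *Igf2bp3* (5.10 ± 0.90, adjusted p = 0.00156), *Mest* (2.53 ± 0.37, adjusted p = 0.000262), *Cdkn1c* (2.59 ± 0.43, adjusted p = 0.000975), *Peg3* (1.97 ± 0.32, adjusted p = 0.000749), *Slc38a4* (1.72 ± 0.26, adjusted p = 0.00037) and *Grb10* (1.26 ± 0.23, adjusted p = 0.00182) differed likewise. For *Dlk1* the difference was -0.13 ± 1.05, adjusted p = 0.988 and did not pass. None of 24 immediate early genes tested had a called difference, beside 4.99% of all genes, a share at which few calls would fall among 24.

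Chemokine and cytokine genes with a called difference were all more negative in gp38+CD26+ cells, 8 of 33 tested. *Cxcl13* was at 2.25 to 353 CPM and 59.6 to 523 CPM in gp38+CD26- cells (difference -5.33 ± 1.37, adjusted p = 0.0238), and *Ccl7* had a difference of -2.81 ± 0.61, adjusted p = 0.00821. *B2m* rose more in gp38+CD26- cells, from 265 to 596 CPM to 4231 to 6903 CPM (difference -2.26 ± 0.22, adjusted p = 1.8e-06), while the difference for *H2-K1* did not pass (-0.46 ± 0.30, adjusted p = 0.468). A rise in gp38+CD26+ cells beside a fall in gp38+CD26- cells was seen for the mesenchymal factor *Osr1* (difference 3.47 ± 0.43, adjusted p = 3.96e-05). *Hsd11b1* rose in both and more in gp38+CD26- cells (-2.79 ± 0.40, adjusted p = 0.000181).

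The single-cell libraries of the study, made from other preparations of stroma at P0 and 4 weeks, gave a second measure of the same ages. The cells that the authors labelled capsular fibroblasts (CapFb) numbered 1974 and 1906 at P0 and 695 and 1207 at 4 weeks, with 10974772 to 28267104 UMIs a library, and 6 to 14 of the barcodes of a library were also found in another library. Their counts were summed per library, and 6440 of 14129 genes (45.6%) passed the same test with 2 libraries an age, 3302 (23.4%) higher and 3138 (22.2%) lower at 4 weeks, a count that was 2606 without the first and 2661 without the second library of 4 weeks. CapFb were chosen by clustering and not by the CD26 gate, so the 2 measures do not cover the same cells. The make-up of CapFb by the authors' subtypes also differed between the ages, CapFb1b making up 31.8 and 42.9% of CapFb at P0 and 21.6 and 18.1% at 4 weeks, CapFb2b 12.3 and 8.29% and 21.4 and 20.05%, and CapFb4 6.84 and 5.77% and 12.8 and 11.8%. The part of subtypes in the summed values was not tested. Of the 1570 genes called in bulk and tested in single cells, 1419 (90.4%) had the same direction and 1132 (72.1%) the same direction with an adjusted p under 0.05, while 52 were called in the opposite direction. Among the 9861 genes not called in bulk the direction was the same in 66.7%, and of the 5455 single-cell calls 20.8% were called in bulk in the same direction.

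**Figure D5:**
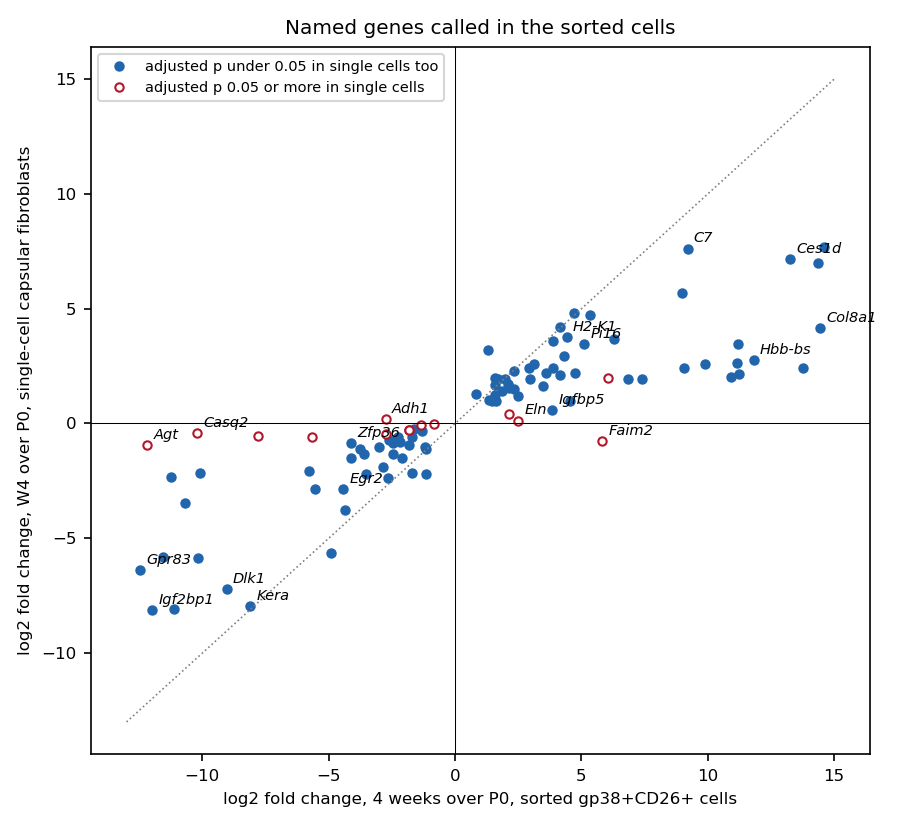
Log2 fold change (4 weeks over P0) of the named genes called in bulk gp38+CD26+ cells (horizontal axis) against that in summed single capsular fibroblasts (vertical axis), 1 point a gene. Most points lie in the upper right and the lower left, and *Eln* and *Adh1* lie near 0 on the vertical axis.

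*Pi16* was at 319 and 179.6 CPM at P0 and 2793 and 2382 CPM at 4 weeks in single capsular fibroblasts (log2 fold change 3.45 ± 0.28, adjusted p = 0.000603). *C7* was at 0.743 and 0.184 CPM at P0 and 108.2 and 69.6 CPM at 4 weeks (7.61 ± 0.43, adjusted p = 0.000274). *Dlk1* was at 3268 and 3942 CPM at P0 and 15.2 and 30.04 CPM at 4 weeks (-7.21 ± 0.38, adjusted p = 0.000236). These rose and fell as in bulk, and so did *Dpp4* (1.68 ± 0.13, adjusted p = 0.000509), *H2-K1* (3.77 ± 0.09, adjusted p = 9.81e-05), *Mest* (-3.998 ± 0.10, adjusted p = 9.81e-05) and *Igf2* (-5.92 ± 0.12, adjusted p = 4.42e-05). *Eln* was at 2726 and 606 CPM at P0 and 1592 and 1835 CPM at 4 weeks in single cells and did not pass (0.12 ± 0.61, adjusted p = 0.887), *Igfbp5* rose (0.58 ± 0.15, adjusted p = 0.0235), being at 348 and 492 CPM in capsular fibroblasts and at 3795 and 7811 CPM in the cells labelled mesothelium at P0 and 4 weeks, and *Adh1* did not pass (0.18 ± 0.25, adjusted p = 0.595). *Fgf7* fell in bulk and rose in single cells, at 35.7 and 29.6 CPM at P0 and 54.9 and 54.1 CPM at 4 weeks (0.81 ± 0.10, adjusted p = 0.00231). Of 24 immediate early genes tested 14 fell and 2 rose in single cells, beside 22.2% and 23.4% of all genes. *Zfp36* had a log2 fold change of -0.86 in single cells beside -4.11 in bulk, *Junb* -0.51 beside -3.28 and *Egr2* -2.85 beside -4.44. The list median was -0.50 in single cells, and the difference between the measures was not tested.

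Cell cycle genes fell in 27 of 40 tested in single capsular fibroblasts (median -1.20), and in 6 of 38 in bulk, the shares of all genes that fell being 22.2% in single cells and 5.93% in bulk. The cells that the authors labelled proliferating were 8.40% (7.62 to 9.23) and 7.33% (6.67 to 8.04) of all cells in the libraries of P0 and 1.13% (0.758 to 1.62) and 0.887% (0.595 to 1.27) in those of 4 weeks (exact 95% binomial intervals, counting error only). Imprinted genes fell in 19 of 22 and complement genes rose in 15 of 18, beside 23.4% of all genes that rose. Some lists leaned the other way from bulk. Chemokine and cytokine genes rose in 17 and fell in 7 of 35 (4 and 8 of 27 in bulk). FGF and IGF genes rose in 13 and fell in 4 of 34 (5 and 8 of 29 in bulk). Glucocorticoid-responsive genes rose in 9 and fell in 5 of 20 (2 and 4 of 19 in bulk).

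Mesothelial markers rose in bulk and for the most part did not pass the test in single capsular fibroblasts. In bulk 9 of 12 tested rose and none fell (median 4.49), among them *Msln*, mesothelin, at 0 to 36.6 CPM (median 0) at P0 and 55.5, 541, 636, 259 and 718 CPM at 4 weeks (log2 fold change 5.499 ± 1.49, adjusted p = 0.0289), *Upk3b*, a uroplakin (5.12), and *Gpm6a* (log2 fold change 5.96 ± 1.21, adjusted p = 0.00589). In single capsular fibroblasts 2 of 9 rose and 1 fell, beside 23.4% and 22.2% of all genes, and *Msln* did not pass (-0.01 ± 0.80, adjusted p = 0.995). Library S122 was lowest of the 4-week libraries in *Msln* and in the summed mesothelial level. All 14 mesothelial markers were higher in the cells labelled mesothelium (Mes) than in CapFb at both ages. The paper defined mesothelium by *Msln* and *Upk3b* among other genes, so this order follows in part from the labels. CapFb leaves out cells labelled Mes, so a change in the number of such cells cannot show in CapFb. Mes made up 4.86% (4.26 to 5.52) and 0.123% (0.0493 to 0.252) of cells at P0 and 1.25% (0.855 to 1.76) and 4.804% (4.10 to 5.59) at 4 weeks, with no common order by age. *Aldh1a2* rose in bulk and fell in CapFb, where it was at 8.31 and 8.16 CPM at P0 and 0.911 and 1.45 CPM at 4 weeks (-2.67 ± 0.25, adjusted p = 0.000921), and in Mes it was at 304 CPM at P0 and 319 CPM at 4 weeks. The part of mesothelial cells in the bulk values was not tested.

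The libraries carried either of 2 label prefixes, TXCK (3 at P0, 3 at 4 weeks) and DFCK (3 and 2), whose meaning the labels do not give. Between the prefixes, with age in the model, no gene of 13709 differed in edgeR at an adjusted p under 0.05, 622 did at an unadjusted p under 0.05, and DESeq2 called 29. At an adjusted p under 0.05, the TXCK libraries alone gave 1659 calls for age and the DFCK libraries alone 39. The DFCK libraries of P0 include S55, whose profile stood apart from the other P0 libraries.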

How the data were processed

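RNA of sorted wild-type gp38+CD26+ thymic fibroblasts was sequenced in bulk after a low-input library preparation. The authors deposited bulk counts as raw whole reads for each Ensembl gene, with HTSeq summary entries, and single-cell counts as raw UMIs for each gene and cell, filtered to over 1000 genes and under 5% mitochondrial UMIs with doublets removed. The submitters' notes name STAR 2.5.3a, HTSeq, Cell Ranger 3.1.0 and mm10. The strand setting of the counting is not given in the sources used here, so overlapping genes on opposite strands may share reads. Entries of no gene were left out. Symbols were found for 37607 of 39179 IDs, the rest holding 0.154% of counts.

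Age was tested with edgeR 4.0.16 (R 4.3.3, filterByExpr, TMM, estimateDisp, glmQLFit, glmQLFTest) on the 11 libraries, the difference between populations as an interaction over 4 groups, and single capsular fibroblasts as sums per library, with Benjamini-Hochberg adjustment and a threshold of 0.05. The CPM printed are plain shares of gene counts. DESeq2 1.42.0 served as an alternative. Fits were tested on simulated data. The members, lists (35) and rule for named genes were chosen with earlier results of these data known. The rule took sort genes, the 10 largest changes a direction at a mean of 10 CPM or more, up to 2 genes a direction in each list and 5 a direction of the interaction, 121 genes in all. A few named genes are not reported here. Other list members are examples chosen after their values were seen. No pair of libraries was alike within sampling noise. Depth was 8454267 to 14645628 counts a library, and intervals cover counting error only.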

Additional observations from a re-analysis of the deposited data

Results flagged for a closer look

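Single libraries stood apart from the others of their age in 37 of 216 gene and age groups examined. By chance about 1 in 20 groups, or 10.8, would if values were normally distributed. A lone library above 0 counts as apart whatever its value, so that figure is no yardstick for these groups. A library counted as apart where its gap to the nearest other library took up more of the group's range than Dixon's 95% value allows, and each value is in CPM with the range of the other libraries of that age after it. Among the newborn libraries, S49 stood apart in *Pecam1* (3.41 against 0), *Hbb-bs* (0.553 against 0.0933 to 0.237), *Gpr83* (77.3 against 50.3 to 59.1), *Pi16* (548 against 247 to 315), *Gsta3* (0.46 against 0) and *Dmp1* (9.48 against 0 to 3.55). S50 was apart in *Hba-a2* (0.0933 against 0), *Rspo1* (1.40 against 0 to 0.473), *Lck* (10.8 against 0 to 3.32), *Matn4* (2.05 against 0), *Stra6* (0.0933 against 0) and *Hoxc5* (1.68 against 0). S55 stood apart in *Epcam* (0.0883 against 0), *Hnrnpa1* (395 against 178.7 to 246), *Slc16a10* (46.6 against 0 to 7.33) and *Pde1b* (7.69 against 0 to 1.89). S57 was apart in *Ptprc* (4.02 against 0), *H2-Ab1* (19.8 against 0.208 to 6.80), *Ddx3y* (181 against 0), *Mmp27* (3.55 against 0), *C7* (9.58 against 1.75 to 4.15) and *Mbp* (0.118 against 0). S58 stood apart in *Gpm6a* (18.2 against 0 to 4.20). Many of these newborn values are of genes at or near 0 in the other libraries, where few reads decide the gap.

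Among those of 4 weeks, S122 stood apart in *Ccl25* (77.0 against 0.546 to 10.8), *Cd74* (494 against 59.4 to 87.3), *H2-Ab1* (172.3 against 30.999 to 59.0) and *Stra6* (25.5 against 2.53 to 9.15). S125 was apart in *Ptprc* (4.27 against 0), *Dlk1* (16.498 against 0 to 2.99), *Col11a1* (2.28 against 0), *Kera* (2.84 against 0), *Cxcl14* (147 against 8.53 to 44.7), *Grem1* (0.213 against 0) and *Barx1* (0.213 against 0). S127 stood apart in *Il6* (2.38 against 0 to 0.244). S132 was apart in *Eln* (1324 against 658 to 812) and *Ddit4* (123 against 15.3 to 43.7). The high values of S122 at 4 weeks include the class II genes and *Ccl25*, a chemokine of thymic epithelium, and those of S125 include *Dlk1* and *Kera*, which were high at P0.

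The change with age differed between gp38+CD26+ and gp38+CD26- cells for 34 of the genes chosen for naming, by a test of the difference of the log2 fold changes. Where all 4 groups held more than 3 counts, the change was more positive in gp38+CD26+ cells for *Igfbp6* (1.53, adjusted p = 0.0124), *Gpm6a* (7.49, adjusted p = 0.0147), *Cd74* (3.77, adjusted p = 0.0204), *Eln* (2.79, adjusted p = 3.51e-05), *Igfbp5* (3.95, adjusted p = 0.000174), *Aldh1a3* (4.31, adjusted p = 0.0018), *Hoxc5* (9.46, adjusted p = 0.0307) and *Gdf10* (1.33, adjusted p = 0.0431). It was more negative for *Pdpn* (-0.77, adjusted p = 0.03), *Dpt* (-2.43, adjusted p = 0.00111), *Dcn* (-0.61, adjusted p = 0.0105), *Sod3* (-1.495, adjusted p = 0.00586), *Lpl* (-0.97, adjusted p = 0.0198), *Col6a6* (-2.05, adjusted p = 0.00443), *Adam12* (-2.71, adjusted p = 0.0011), *Spry2* (-1.603, adjusted p = 0.0123), *Hsd11b1* (-2.79, adjusted p = 0.000181) and *Angptl2* (-0.88, adjusted p = 0.0267). In the remaining genes at least 1 group held 3 counts or fewer, so the fitted difference depends on the prior count and is no measure of size. Of these the difference was positive for *Mrgprg* (18.76, adjusted p = 0.00313), *Col8a1* (12.70, adjusted p = 0.0042), *Cpxm2* (8.61, adjusted p = 0.0369), *Car8* (15.18, adjusted p = 0.00261), *Kdr* (15.11, adjusted p = 0.00757), *Stra6* (9.81, adjusted p = 0.0251), *Sox5* (10.01, adjusted p = 0.000666), *Mbp* (16.90, adjusted p = 0.00182) and *Faim2* (13.48, adjusted p = 0.0123), and negative for *Agt* (-8.16, adjusted p = 0.00913), *Dsc2* (-8.92, adjusted p = 0.0392), *Dmp1* (-11.64, adjusted p = 0.0413), *Slc16a12* (-10.37, adjusted p = 0.00721), *Car4* (-9.73, adjusted p = 0.00673), *Slc16a10* (-9.72, adjusted p = 0.00366) and *Pde1b* (-9.54, adjusted p = 0.0211).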

How the results depend on the processing

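The count of genes changed with age (1641) stayed within 1.5 times under RLE scaling (1617), with no filter on low counts (1448), in DESeq2 (2376), with the label prefix as a term (1619), in the TXCK libraries alone (1659) and with all nonepithelial groups in 1 fit (1554). It was 864 with S124 kept, 39 in the DFCK libraries alone (3 against 2) and 444 in a test against a log2 fold change of 1. Leaving out each library in turn gave 1241 (without S131) to 1946 (without S55). The count of differences between the populations (702) was 463 with S124 kept and 1147 in DESeq2, and 533 to 719 with each gp38+CD26+ library left out, those of gp38+CD26- cells not being left out in turn. No gene differed between the prefixes in edgeR with any library left out, and DESeq2 called 29. In single capsular fibroblasts (6440) RLE scaling gave 6421, no filter 6505, CapFb with mesothelium 4966 and DESeq2 5116, and leaving out a library gave 2606 to 7029. Without the first or the second library of 4 weeks 2606 and 2661 passed. The single-cell libraries share replicate numbers, but the deviations of same-numbered libraries did not go together (correlation -0.0067), and the fit with the replicate block called 6297. The bulk libraries share no number, but those of gp38+CD26- cells lie 24 (P0) or 36 (4 weeks) above gp38+CD26+ libraries of the same prefix. In a check chosen after seeing the data, the deviations of such pairs correlated at 0.0116 to 0.0619, which is low in size. Even so, 7 of 11 libraries correlated highest with their own mate, and how many would do so by chance was not tested. The summed level of sex-linked genes did go with the pairs. At P0 it was highest in S57 (300 CPM) and S81 (212 CPM), and at 4 weeks lowest in S125 (1.42 CPM) and S161 (4.61 CPM). The same mice may thus have given both populations, which was not tested. With the pairs as a replicate block and S160 left out 329 differences were called, 145 of them positive, and 19 of 34 named ones, all 34 of the same sign, against 548 without the block.

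Of the 105 genes named and called for age, none turned its direction under an alternative, but 90 lost their call under at least 1. Calls were lost for 90 genes in the DFCK libraries alone and for 32 against a log2 fold change of 1. They were lost for 29 with all nonepithelial groups in 1 fit and for 14 with S124 kept. The call was lost without at least 1 library for *Adamts9*, *Barx1*, *Col11a1*, *Cxcl16*, *Ddit4*, *Emilin1*, *Grem1*, *Hoxc4*, *Mmp27*, *Rdh10* and *Rspo3*. *Lck* (1.11, not called) was at -0.20 in the TXCK libraries, *Ngfr* (-0.41, not called) at 0.49 in the DFCK libraries, and *Slc16a10* (-0.12, not called) at 0.59 with the prefix as a term, 2.06 in the TXCK libraries, 1.59 without S55 and 0.09 without S122, with -0.53 to 1.59 over all libraries left out. Differences between populations lost their call without 1 gp38+CD26+ library for 8 genes, among them *Cd74* (2.74 without S122) and *Pdpn* (-0.75 without S132). Of the list counts, 91 of 440 values moved by over 1.5 times, mostly in the DFCK libraries, against a log2 fold change of 1 and with S124 kept. The cause of these changes was not tested. Depth limits genes at 0, where 3 counts over a group bound the fold.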

Other observations

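The endothelial markers gave a divided picture in gp38+CD26+ cells. *Kdr*, the receptor of vascular endothelial growth factor, had no count at P0 and was at 0.82, 30.3, 8.05, 10.99 and 43.8 CPM at 4 weeks (at least 409-fold higher, adjusted p = 0.00304), and *Tek*, the angiopoietin receptor, was at 41.1 to 106.6 CPM (median 81.2) and 155.1, 129.8, 229, 281 and 155.9 CPM (log2 fold change 1.46 ± 0.30, adjusted p = 0.00595). *Pecam1* (CD31) was at 0 to 3.41 CPM (median 0) at P0 and 0, 7.61, 0, 2.05 and 6.98 CPM at 4 weeks. It had too few counts to be tested for age, and *Tie1* was at 0 in all 11 libraries. In single capsular fibroblasts *Kdr* rose as well, at 2.30 and 0.956 CPM at P0 and 5.47 and 7.12 CPM at 4 weeks (2.03 ± 0.41, adjusted p = 0.011), a call that was lost without either library of 4 weeks (log2 fold change 2.22 without the first, 1.81 without the second). *Kdr* was at 46.5 CPM at P0 and 115.3 CPM at 4 weeks in the cells labelled mesothelium, against 1.64 and 6.51 CPM in capsular fibroblasts, and its lowest bulk library of 4 weeks, S122, was also lowest in mesothelial markers. Of the medullary fibroblast markers *Sod3* and *Il33* rose and *Col26a1*, a collagen, fell (log2 fold change -4.34 ± 1.02, adjusted p = 0.0138), out of 8 tested. None of 4 adipocyte, 2 glial, 4 thymic epithelial and 5 T lineage markers tested passed.

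Other genes changed differently in the 2 fibroblast populations. *Mbp*, known from myelin, had 1 count at P0 and was at 6.18, 21.5, 16.1, 8.74 and 13.2 CPM at 4 weeks in gp38+CD26+ cells, and in gp38+CD26- cells at 0 to 9.16 CPM at P0 and 0 in every library of 4 weeks. *Car4*, a membrane carbonic anhydrase, was at 0 to 3.04 CPM (median 0) and 0, 5.48, 3.14, 0 and 1.79 CPM in gp38+CD26+ cells and at 0 to 0.1 CPM and 30.7 to 66.6 CPM in gp38+CD26- cells. *Slc16a12*, a transporter, was at 0 to 3.04 CPM (median 0.606) at P0 and 0 in all 5 libraries of 4 weeks, against 0 to 12.3 CPM and 33.5 to 68.1 CPM. *Mbp* was thus read at 4 weeks in gp38+CD26+ cells, and the other 2 genes at 4 weeks in gp38+CD26- cells. Among the 52 genes with opposite calls in bulk gp38+CD26+ cells and single capsular fibroblasts, the gap between the log2 fold changes was largest in *Fam19a5*, a secreted protein (-8.36 in bulk, where it had no count at 4 weeks so that the size depends on the prior count, and 0.56 in single cells). *Fabp3*, a fatty acid binding protein (3.97 and -2.30), *Aplp1*, a relative of the amyloid precursor (4.93 and -1.18), *1200007C13Rik* (-4.67 and 1.41) and *Aldh1a2* (3.39 and -2.67) came next. *Fabp3* was at 155.1 CPM at P0 and 129.5 CPM at 4 weeks in the cells labelled mesothelium and at 2.22 and 0.438 CPM in capsular fibroblasts. These genes were picked after their values were seen.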
